A study of Mus musculus with 9 samples.

Results

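Brain gene expression was compared between leptin-deficient mice given an extract of Vigna umbellata (VE, a bean) and wild-type mice given vehicle, on 6 of the 9 arrays of the study: 3 arrays titled as ob/ob mice with VE against 3 titled as wild-type mice with vehicle. The wild-type animals were C57BL/6JHamSlc-+/+ and the treated animals C57BL/6JHamSlc-ob/ob. All were males that entered at 6 weeks of age, had 1 week of acclimatization on standard chow, and stayed on that chow and tap water throughout. VE was gavaged at 100 mg/kg body weight for 42 days, and wild-type mice received vehicle for the same time. The remaining 3 arrays hold ob/ob mice given vehicle; they enter here through the shared estimate of spread and as levels set beside those of the treated mice. Genotype and treatment both differ between the compared groups, so a difference here belongs to ob/ob plus VE as a whole.

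Leptin is a hormone made by fat cells that reports energy stores to neurons of the hypothalamus and other brain areas. Mice with the ob mutation make no working leptin from birth and become hyperphagic, obese and insulin resistant, so their brains develop as well as live without the hormone. Leptin acts on a receptor of the cytokine family that signals through Jak2 and Stat3, and in the arcuate nucleus it restrains neurons that make Npy and Agrp and drives neurons that make Pomc and Cartpt.

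The deposited values are log2 signals of 22206 probe sets, of which 19572 carry 1 gene symbol. Brain markers were bright: Camk2a, a kinase of excitatory synapses, read 19.46 to 19.57 on the wild-type arrays, and Mbp, the myelin basic protein, 18.45 to 18.69, where the median wild-type probe set was at 7.13. The 8 measured adipocyte markers averaged between 3.95 (Pck1) and 6.55 (Lipe) on the wild-type arrays, all below that median. The labels give brain without a region, and the design text speaks of fat tissue and of a 50 mg/kg group, which was not analysed here. Whether the 3 arrays of a group are 3 animals is not stated in so many words, so the p-values measure the spread between these samples. In a bulk sample, fewer cells of a type and less RNA per cell cannot be told apart.

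VE array 2 stood apart from the others. Its values correlated with those of the other 8 arrays at 0.962 to 0.970, where the other 8 correlated among themselves at 0.979 to 0.993. Its brightest probe set read 16.37 against 19.01 to 19.93 elsewhere, and its spread over probe sets was 2.38 (SD) against 2.56 to 2.84. Bright genes read low on this array: over the 7402 brightest probe sets, the median deviation from the wild-type mean was 0.01 on VE array 1, -0.74 on VE array 2 and -0.14 on VE array 3. Quantile normalization, which gives every array the same distribution, moved the median difference of that set from -0.28 to 0.00. It moved the median of all probe sets from -0.07 to 0.01, and leaving out VE array 2 moved it to 0.00. Results below are given with deposited values first, then after quantile normalization and without VE array 2.

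With deposited values, 22 probe sets were lower in VE-treated ob/ob brain than in wild-type brain at a limma adjusted p under 0.05, 0.0991% of those tested, and 0 were higher (0%). At an unadjusted p under 0.05, limma gave 2046 lower (9.21%) and 661 higher (2.98%). The 22 comprised 20 named genes and 2 probe sets without a symbol, and the smallest of their differences was 1.14 in size on the log2 scale. Of the 22, 18 lay among the 7402 brightest probe sets and 4 among the 7402 of middle level. After quantile normalization none passed: the lowest limma adjusted p was 0.166, with 1260 lower (5.67%) and 1068 higher (4.81%) at an unadjusted p under 0.05. Without VE array 2, all 22 passed again among 65 lower (0.293%) and 8 higher (0.036%), with 1469 lower (6.62%) and 786 higher (3.54%) at an unadjusted p under 0.05. Quantile normalization of the other 8 arrays gave 12 lower (0.054%) and 7 higher (0.0315%), and 9 of these 19 were among the 22.

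The calls also rested on single arrays of every group. Without wild-type array 2, wild-type array 3 or VE array 3, limma called 0 probe sets, with 1818, 1940 and 3022 at an unadjusted p under 0.05. Without wild-type array 1 it called 30 (29 lower, 1 higher), 11 of them among the 22, and without VE array 1 it called 158, all 22 included. Leaving out any 1 of the ob/ob vehicle arrays, which lend only their spread, also gave 0 calls, with lowest limma adjusted p values of 0.0510 to 0.0720 and 2382 to 2472 probe sets at an unadjusted p under 0.05. A fit of the compared 6 arrays alone called 0 with 2077 at an unadjusted p under 0.05. In all, the 3 VE arrays lay below the 3 wild-type arrays for 2550 probe sets (11.5%) and above them for 1185 (5.34%).

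The smallest p of all probe sets belonged to St6galnac5. This sialyltransferase that adds sialic acid to brain gangliosides read 14.11, 14.92 and 14.76 on the wild-type arrays and 12.76, 12.49 and 12.41 on the VE arrays. It fell by 2.04 on the log2 scale (SE 0.23, limma adjusted p = 0.0174). The groups did not overlap, and VE array 2 lay between the other VE arrays. The difference was -1.56 after quantile normalization (limma adjusted p = 0.167) and -2.01 without VE array 2 (limma adjusted p = 0.00494). Untreated ob/ob brain lay between, at 13.56, 13.67 and 13.74. Its difference from wild type was -0.94 (limma adjusted p = 0.0648) and the VE arrays differed from it by -1.10 (limma adjusted p = 0.0588), neither of which passed. Of 17 measured sialyltransferases this was the 1 that passed, beside 0.0991% of all probe sets called lower. The family's median was -0.31 with deposited values and -0.06 after quantile normalization. At an unadjusted p under 0.05, 3 were lower and 0 higher, beside 9.21% and 2.98% of all probe sets. Besides St6galnac5 these were St6galnac2 at -0.67 and St8sia5 at -0.54.

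Ndst4, which trims and sulfates the chains of heparan sulfate, had the widest difference of the 20 named genes. It read 8.64, 9.80 and 10.03 in wild type and 7.72, 7.04 and 6.96 with VE, and fell by 2.25 (SE 0.33, limma adjusted p = 0.0429). Every VE value was below every wild-type value, though wild-type array 1 lay well below the other two. After quantile normalization the difference was -2.09 (limma adjusted p = 0.166), and without VE array 2 it was -2.15 (limma adjusted p = 0.0128). The ob/ob vehicle arrays read 8.74, 8.43 and 8.32.

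Orphan nuclear receptors of the Nr4a family also passed. These transcription factors have no known natural ligand and are made within minutes to hours of neuronal activity or hormone signals, as immediate early genes. Nr4a2, which also maintains dopamine neurons, read 12.16, 13.08 and 12.69 in wild type against 11.39, 11.03 and 10.61 with VE, and fell by 1.63 (SE 0.27, limma adjusted p = 0.0472). Nr4a3 read 13.40, 14.89 and 14.39 against 12.16, 12.38 and 12.29, and fell by 1.95 (SE 0.32, limma adjusted p = 0.0472). With deposited values both were separated from wild type on all 3 arrays. After quantile normalization Nr4a3 overlapped, VE array 2 reading 13.14 against 13.10 on wild-type array 1. Nr4a1, the third member, was not separated, reading 9.51, 9.37 and 9.41 in wild type and 9.33, 9.62 and 9.43 with VE. Its difference was 0.03 (SE 0.28, limma adjusted p = 0.975).

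Untreated ob/ob brain lay near wild type for Nr4a2. It read 12.67, 12.99 and 12.83 there, a difference of 0.19 from wild type (limma adjusted p = 0.725), and the VE arrays differed from it by -1.82 (limma adjusted p = 0.0334). Nr4a3 read 14.11, 13.51 and 13.57, and the VE arrays differed from it by -1.45 (limma adjusted p = 0.0649), which did not pass. Both comparisons with VE use the same 3 VE arrays, so they are not separate evidence. After quantile normalization the differences from wild type were -1.28 for Nr4a2 and -1.50 for Nr4a3 (limma adjusted p = 0.227 for both). Without VE array 2 they were -1.64 and -2.00 (limma adjusted p = 0.0200 and 0.0178). Neither passed once the arrays without VE array 2 were quantile normalized (-1.54 and -1.88, limma adjusted p = 0.0666 and 0.0539).

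The promoters of the 3 receptors are shown as a description of the family. Each sequence runs from 250 bases before to 50 bases after the annotated start, is taken from RefSeq on GRCm38.p6 and reads along the gene's strand, with capitals marking half-sites of the cyclic AMP response element, TGACG or its reverse complement CGTCA. The Nr4a1 sequence lies at chr15:101266596-101266895 on the plus strand, Nr4a2 at chr2:57123954-57124253 on the minus strand and Nr4a3 at chr4:48045055-48045354 on the plus strand.
Nr4a1: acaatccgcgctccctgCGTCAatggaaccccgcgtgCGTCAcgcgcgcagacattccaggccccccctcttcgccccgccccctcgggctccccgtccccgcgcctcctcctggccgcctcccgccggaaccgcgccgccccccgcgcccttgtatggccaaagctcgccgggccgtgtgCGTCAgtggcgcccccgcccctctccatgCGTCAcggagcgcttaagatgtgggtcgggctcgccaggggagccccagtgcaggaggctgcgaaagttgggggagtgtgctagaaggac
Nr4a2: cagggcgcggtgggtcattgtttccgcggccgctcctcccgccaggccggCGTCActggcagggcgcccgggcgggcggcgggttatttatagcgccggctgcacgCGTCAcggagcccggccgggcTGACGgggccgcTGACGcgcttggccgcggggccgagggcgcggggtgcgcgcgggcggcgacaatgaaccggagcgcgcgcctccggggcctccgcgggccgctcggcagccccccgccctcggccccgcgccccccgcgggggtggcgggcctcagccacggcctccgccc
Nr4a3: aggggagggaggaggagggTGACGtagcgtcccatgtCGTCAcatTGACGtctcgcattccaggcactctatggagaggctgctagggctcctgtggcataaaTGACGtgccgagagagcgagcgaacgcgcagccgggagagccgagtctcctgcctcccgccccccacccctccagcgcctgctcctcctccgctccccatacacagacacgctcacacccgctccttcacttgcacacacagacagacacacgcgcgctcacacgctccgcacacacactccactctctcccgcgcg
Each of the 3 holds 4 half-sites on either strand. Among 32851 promoters of the same length 20.8% hold at least 1 half-site, 5.01% at least 2, 1.03% at least 3 and 0.231% (76 promoters) at least 4. Whether these half-sites bear on the levels of the 3 genes was not tested. A match of letters is a description and not a bound site.

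Of 16 measured immediate early genes, Nr4a2 and Nr4a3 were called lower and none higher, beside 0.0991% and 0% of all probe sets. At an unadjusted p under 0.05, 5 were lower and 0 higher, beside 9.21% and 2.98% of all probe sets. All VE arrays were below all wild-type arrays for 8 of the 16, beside 11.5% of all probe sets, and the median was -0.42 (-0.34 after quantile normalization, -0.29 without VE array 2). Arc, which governs glutamate receptor uptake at synapses, read 8.09, 8.41 and 8.55 in wild type and 7.57, 7.20 and 7.44 with VE, a difference of -0.95 (limma adjusted p = 0.144). For the transcription factors Jun and Egr1 the differences were -0.90 and -0.97 (limma adjusted p = 0.222 and 0.286), and for Fos it was -0.34 (limma adjusted p = 0.551). Their groups did not overlap except for Fos, whose highest VE value of 6.87 lay above its lowest wild-type value of 6.71.

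**Figure D1:**
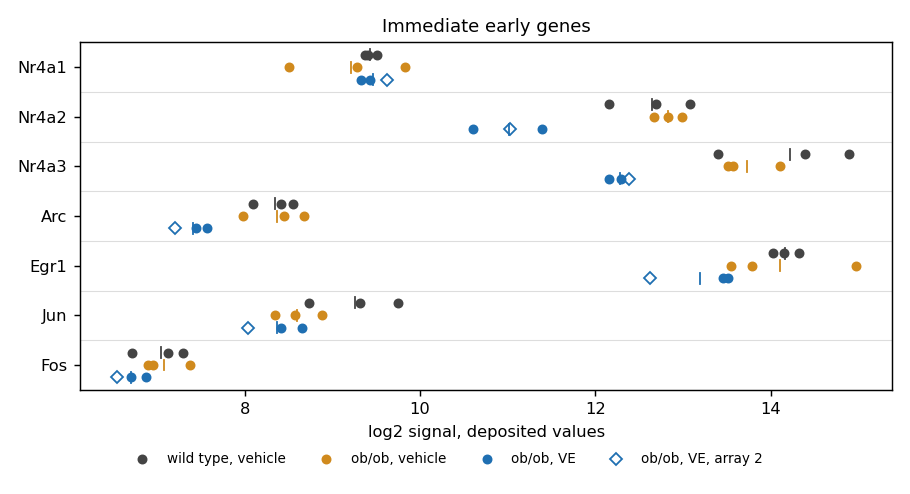
Log2 signal (deposited values, horizontal axis) of 7 immediate early genes on each array. Points are arrays, short lines group means, and the open diamond is VE array 2. Nr4a2 and Nr4a3 on the VE arrays lie below all wild-type and all ob/ob vehicle arrays, while Nr4a1 on the VE arrays (9.33 to 9.62) overlaps wild type (9.37 to 9.51).

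Of the 20 genes, 8 encode proteins known from synapses or cell signalling, grouped here after their values were seen. Shisa6, an auxiliary subunit of AMPA-type glutamate receptors, read 12.59, 13.65 and 13.83 in wild type and 11.41, 11.13 and 11.49 with VE, and fell by 2.01 (SE 0.29, limma adjusted p = 0.0429). Tanc1, a scaffold of the postsynaptic density, fell by 1.36 from 7.39, 7.80 and 7.63 to 6.43, 6.01 and 6.29. Chrm1, a muscarinic acetylcholine receptor of forebrain neurons, fell by 1.17, its wild-type arrays reading 12.42, 12.42 and 12.57 and its VE arrays 11.44, 11.16 and 11.29. Both groups of Chrm1 were tight, and the gap between them was wider than either. Ncs1, a calcium sensor of nerve terminals, fell by 1.20, Gab1, a docking protein below growth factor receptors, fell by 1.38, and Ksr1, a scaffold of the Raf, MEK and ERK kinases, fell by 1.21. Mast3, a kinase of the microtubule-associated family, fell by 1.14 and Wipf3, which binds actin regulators of the WASP type, fell by 1.46. The limma adjusted p of these 7 after Shisa6 was 0.0429 to 0.0472. After quantile normalization the 8 differences ran from -1.66 (Shisa6) to -0.82 (Chrm1), all still negative.

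The other named genes belong to glia, matrix, organelles and the cytoskeleton. Cryab, a small heat shock protein abundant in oligodendrocytes, read 11.80, 12.38 and 12.46 in wild type and 10.90, 10.47 and 10.73 with VE, and fell by 1.51 (SE 0.25, limma adjusted p = 0.0472). Its ob/ob vehicle arrays read 10.80, 10.22 and 10.07, a difference of -1.85 from wild type (limma adjusted p = 0.0133), and the VE arrays differed from them by 0.34 (limma adjusted p = 0.606). Pfn1, profilin, which supplies actin monomers, read 12.69, 12.93 and 12.85 against 11.52, 11.39 and 11.30, and fell by 1.42 (SE 0.20, limma adjusted p = 0.0429). Untreated ob/ob brain was again close to the treated values for Pfn1, at 11.78, 11.36 and 11.69. Gstp1, a glutathione transferase, fell by 1.44, Prelp, a small leucine-rich proteoglycan, fell by 1.38, and Sh3bgrl3, a small thioredoxin-like protein, fell by 1.30. Slc25a23, a calcium-regulated carrier of the inner mitochondrial membrane, fell by 1.33, Trp53inp2, which promotes autophagy, fell by 1.29, and Gorasp2, which stacks Golgi cisternae, fell by 1.22.

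The ob/ob vehicle levels of these 20 genes ran from above wild type to below the VE arrays. Set side by side, the difference of the vehicle group from wild type was 0.19 for Nr4a2, -0.50 for Nr4a3, -0.67 for Ksr1 and Tanc1, -1.27 for Trp53inp2, -1.51 for Sh3bgrl3 and -1.85 for Cryab. Both differences share the wild-type arrays, so their likeness is no separate support. Over the 20, the difference between VE and wild type ran from -2.09 (Ndst4) to -0.79 (Slc25a23) after quantile normalization and from -2.15 (Ndst4) to -1.08 (Ncs1) without VE array 2. The difference of the VE arrays from the vehicle arrays passed for Nr4a2 alone among the 20.

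**Figure D2:**
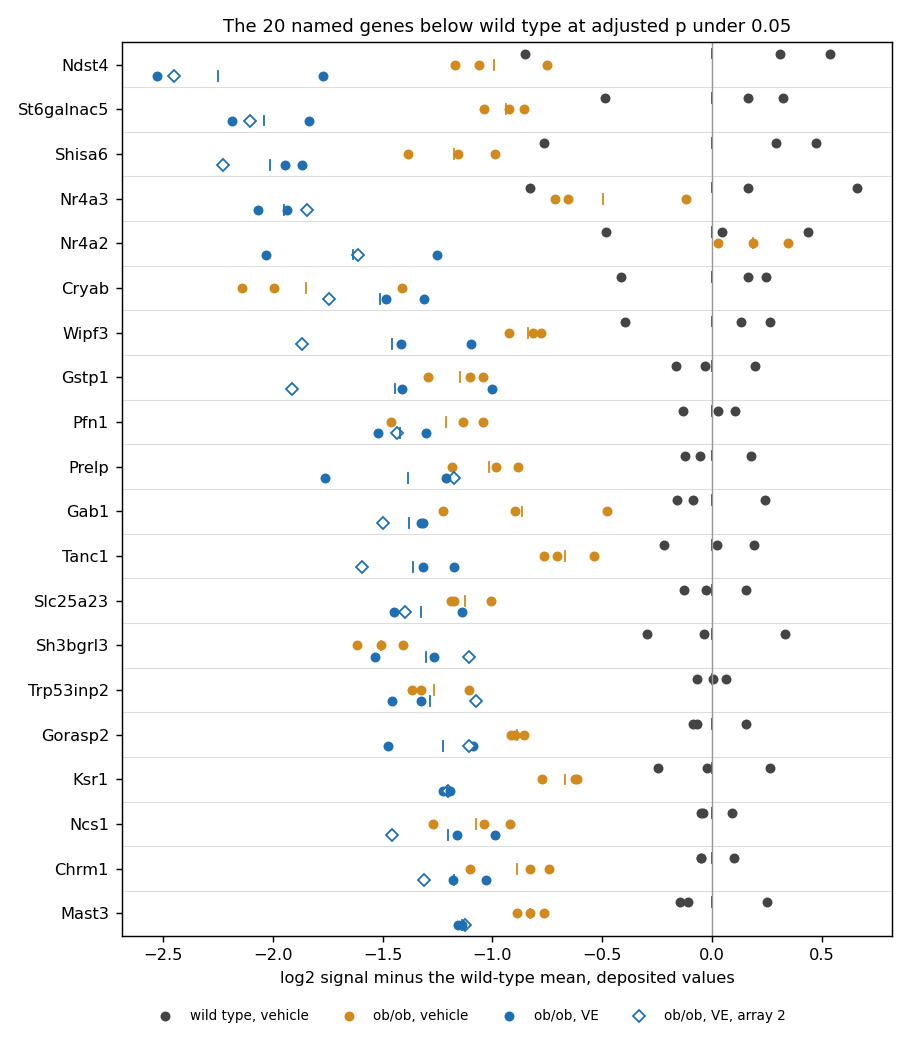
The 20 named genes that were lower than wild type at a limma adjusted p under 0.05, as log2 signal minus the wild-type mean (horizontal axis, deposited values). Points are arrays, short lines group means, and the open diamond is VE array 2. All VE points lie left of all wild-type points. The ob/ob vehicle points lie near wild type for Nr4a2, between the groups for St6galnac5 and Ksr1, and around or left of the VE points for Cryab and Sh3bgrl3.

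No gene rose with deposited values. The 12 named genes with the smallest p among those with a mean over the 9 arrays above the median, and higher with VE, were Drd1, Jrkl, Unc13c, Cts3, Cpne5, Scn4b, Rgs9, Nelfcd, Cyp4f18, Cplx3, Plscr5 and Kin. Drd1, Cts3, Cyp4f18 and Cplx3 had wild-type means of 6.86, 6.96, 6.79 and 7.02, below the wild-type median. They met that level through the other groups. The differences of the 12 ran from 0.58 (Kin) to 1.71 (Rgs9), with limma adjusted p values from 0.0779 (Drd1) to 0.234 (Kin). All VE arrays lay above all wild-type arrays for each, as the ranking by p favours. Unc13c, which primes synaptic vesicles, read 7.77, 7.34 and 7.36 in wild type and 9.07, 8.35 and 8.09 with VE. Scn4b, a sodium channel subunit, read 8.16, 7.61 and 7.75 against 8.99, 8.54 and 8.52, and Cplx3, a complexin that clamps vesicle release, 7.55, 6.95 and 6.57 against 7.71, 7.91 and 7.82.

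**Figure D3:**
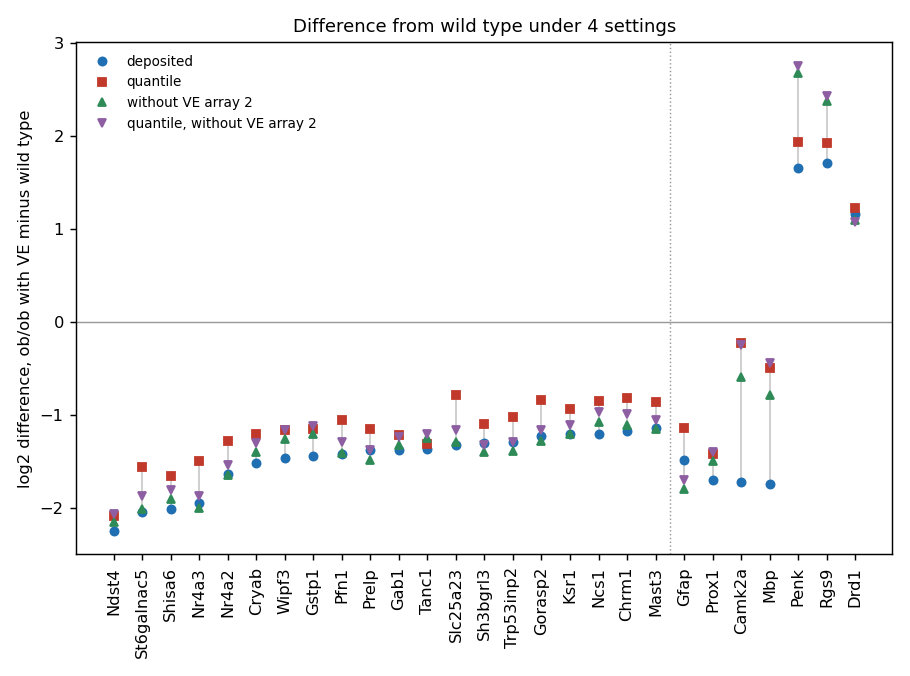
Log2 difference of VE-treated ob/ob from wild-type brain (vertical axis) for the 20 named genes that passed (left of the dotted line) and 7 others, under 4 settings given by colour and symbol. The 20 stay negative in each setting. Camk2a and Mbp shrink from -1.72 and -1.74 to -0.23 and -0.49 after quantile normalization, and Penk grows from 1.66 to 2.68 when VE array 2 is left out.

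Without VE array 2 the higher side changed. Of the 8 probe sets then called higher, 4 were striatal genes: Penk, Rgs9, Drd2 and Tac1, named here after their values were seen. The others included Akr1c21, an aldo-keto reductase, at 1.27 (limma adjusted p = 0.0119) and the olfactory receptor Olfr1113 at 1.28 (limma adjusted p = 0.0184). The same 6 passed after quantile normalization of the other 8 arrays.

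The striatum is the forebrain region whose spiny projection neurons carry dopamine receptors and the peptides enkephalin and substance P. Penk, the enkephalin precursor, read 10.94, 11.65 and 11.52 in wild type and 14.12, 10.99 and 13.97 with VE. VE arrays 1 and 3 were far above wild type and array 2 lay within it. The difference was 1.66 with all arrays (SE 0.65, limma adjusted p = 0.337), 1.94 after quantile normalization (limma adjusted p = 0.269) and 2.68 without VE array 2 (limma adjusted p = 0.00494). Rgs9, which shortens dopamine receptor signals, read 9.55, 9.51 and 9.04 against 11.73, 9.74 and 11.77, and its difference of 1.71 became 2.38 without VE array 2 (limma adjusted p = 0.00536). Drd2 read 5.28, 5.80 and 5.47 against 7.14, 5.15 and 6.87. Tac1, the substance P precursor, read 10.61, 10.68 and 10.24 against 12.20, 10.65 and 12.04. With deposited values VE array 2 lay in or near the range of wild type for all 4. After quantile normalization it stayed in or near that range for Penk and Drd2, but it read 10.21 for Rgs9 and 11.17 for Tac1, above the highest wild-type values of 9.41 and 10.52.

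Drd1 behaved differently. This dopamine receptor read 7.34, 6.62 and 6.61 in wild type, 7.93, 8.16 and 7.98 with VE and 7.37, 7.06 and 7.15 in ob/ob mice with vehicle. Array 2 was the highest of the 3 VE arrays here, and the difference of 1.17 (SE 0.23, limma adjusted p = 0.0779) was 1.23 after quantile normalization and 1.10 without VE array 2. It did not pass in those settings, but it did without wild-type array 1 (1.41, limma adjusted p = 0.0348).

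Over the 12 measured striatal genes, 5 were higher and 2 lower at an unadjusted p under 0.05, beside 2.98% and 9.21% of all probe sets. The median was 0.50 with deposited values, 0.66 after quantile normalization and 0.99 without VE array 2, and by array it was 1.06, -0.41 and 0.87 for VE arrays 1, 2 and 3. The same arrays gave 1.01, 0.24 and 0.97 after quantile normalization, so array 2 changed sides. The wild-type arrays gave -0.14, 0.16 and -0.04 and the ob/ob vehicle arrays 0.01, -0.40 and -0.11. The 2 lower members, Foxp1 at -0.72 and Bcl11b at -0.82, are transcription factors also made in cortex. Pde10a, a phosphodiesterase of spiny neurons, also read higher in ob/ob brain with vehicle, at 13.24, 12.37 and 12.59 against 11.73, 12.23 and 12.00 in wild type, and read 13.16, 11.54 and 12.96 with VE. Ppp1r1b, which encodes the dopamine-regulated phosphatase inhibitor of these neurons, differed by 0.43 (limma adjusted p = 0.610), and by 0.90 without VE array 2 (limma adjusted p = 0.0895).

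Hippocampal markers lay on the other side. Of 10 measured, 7 were lower and 0 higher at an unadjusted p under 0.05, beside 9.21% and 2.98% of all probe sets. All 10 had negative differences, and none passed after adjustment. The median was -0.83, -0.66 after quantile normalization and -0.95 without VE array 2, and it was -0.93, -0.74 and -0.91 on the 3 VE arrays (-0.89, -0.39 and -0.83 after quantile normalization). Wild-type array 1 was itself low, at -0.56 against 0.31 and 0.19 on the other two, and lay beside the ob/ob vehicle arrays at -0.55, -0.42 and -0.70. Without wild-type array 1 the median difference was -0.98.

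Prox1, the transcription factor of dentate granule cells, read 10.88, 12.06 and 11.79 in wild type and 10.30, 9.46 and 9.87 with VE, a difference of -1.70 (SE 0.31, limma adjusted p = 0.0634). It passed without VE array 2 (-1.49, limma adjusted p = 0.0471) and without wild-type array 1 (-2.05, limma adjusted p = 0.0324). Quantile normalization of the 8 arrays without VE array 2 ended the first of these calls (limma adjusted p = 0.127). Wfs1, a protein of the endoplasmic reticulum strong in hippocampal pyramidal cells, read 10.70, 10.05 and 10.10 against 9.16, 9.58 and 9.23 (limma adjusted p = 0.145). Lct, lactase, a marker of granule cells, read 6.37, 7.68 and 7.29 against 6.22, 5.75 and 5.62 (limma adjusted p = 0.189). Spink8 overlapped between the groups, with wild-type array 1 at 7.44 and VE array 2 at 7.48. Dsp and C1ql2, further granule cell genes, differed by -0.83 and -0.82 (limma adjusted p = 0.213 and 0.228), with no overlap in either.

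**Figure D4:**
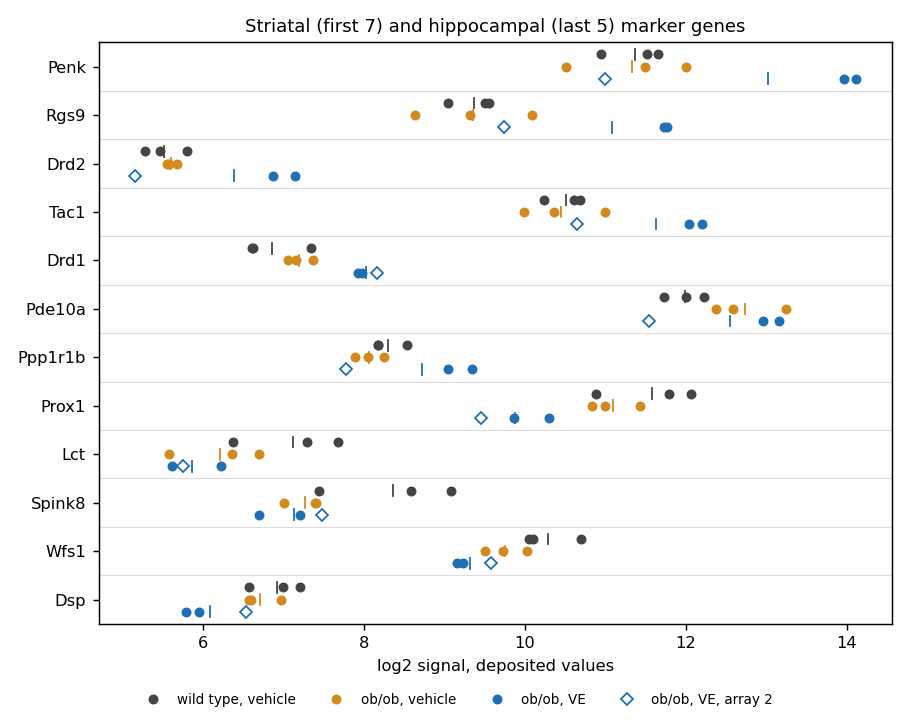
Log2 signal (deposited values, horizontal axis) of 7 striatal genes (Penk to Ppp1r1b) and 5 hippocampal genes (Prox1 to Dsp) on each array. Points are arrays, short lines group means, and the open diamond is VE array 2. VE arrays 1 and 3 stand at 14.12 and 13.97 for Penk while VE array 2 is at 10.99 among the wild-type arrays. For Prox1 all 3 VE arrays are below all wild-type arrays.

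Thalamic markers were mixed. Of 12 measured, 4 were lower and 0 higher at an unadjusted p under 0.05, beside 9.21% and 2.98% of all probe sets. The median was -0.45 (-0.27 after quantile normalization, -0.17 without VE array 2). Tcf7l2, a Wnt effector and the leading transcription factor of thalamic neurons, read 13.60, 12.73 and 13.10 in wild type, 12.50, 12.29 and 11.98 with VE and 11.39, 10.19 and 10.85 in ob/ob mice with vehicle. Its difference from wild type was -0.89 with VE (limma adjusted p = 0.275) and -2.33 with vehicle (limma adjusted p = 0.0118), and the VE arrays were 1.45 above vehicle (limma adjusted p = 0.0592). With deposited values the treated arrays lay between the other groups with no overlap, and neither of the differences that involve VE passed. The difference between VE and wild type was -0.48 after quantile normalization (limma adjusted p = 0.592) and these groups overlapped, VE array 2 reading 13.02. Synpo2, an actin-binding protein, at -0.99, Plekhg1 at -0.79 and Prkcd, a protein kinase C of thalamic relay neurons, at -0.76 did not pass with deposited values. Synpo2 passed without VE array 2 (-1.23, limma adjusted p = 0.0257), but not with quantile normalization of those 8 arrays (limma adjusted p = 0.0539).

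Markers of glutamatergic neurons in general showed how much VE array 2 weighs on bright genes. The median of 11 was -1.14, with -0.30, -1.78 and -0.84 on the 3 VE arrays, and it was -0.47 after quantile normalization and -0.46 without VE array 2. Camk2a read 19.20, 15.52 and 18.62 on the VE arrays. Slc17a7, the vesicular glutamate transporter of cortex, read 17.85, 17.77 and 17.74 in wild type and 17.73, 14.85 and 16.95 with VE, and its difference of -1.28 was -0.04 after quantile normalization. Nrgn, Gria1 and Snap25 had the same form, with differences of -1.68, -1.57 and -1.35 that became -0.55, -0.47 and -0.01. By contrast Neurod2, a transcription factor of cortical and hippocampal excitatory neurons, read 9.03, 9.55 and 9.75 against 8.71, 7.87 and 8.03 and stayed at -1.05 after quantile normalization (limma adjusted p = 0.211). Its relative Neurod6 was at -1.14, and at -0.67 after quantile normalization.

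Myelin and oligodendrocyte genes were lower as a group. Of 17 measured, Cryab was called lower and none higher, beside 0.0991% and 0% of all probe sets. At an unadjusted p under 0.05, 12 were lower and 0 higher, beside 9.21% and 2.98% of all probe sets. All 17 differences were negative, and 12 had all VE arrays below all wild-type arrays, beside 11.5% of all probe sets. The median was -0.92, -0.60 after quantile normalization and -0.66 without VE array 2. By array it was -0.56, -1.37 and -0.65 with VE, -0.81, -1.45 and -0.91 with vehicle in ob/ob, and -0.41, 0.41 and 0.08 in wild type. Fa2h, which hydroxylates the fatty acids of myelin lipids, read 8.87, 9.41 and 9.47 in wild type and 7.94, 8.27 and 8.03 with VE, a difference of -1.17 (SE 0.22, limma adjusted p = 0.0634) that passed without VE array 2 (-1.27, limma adjusted p = 0.0208), but not once the other 8 were quantile normalized (limma adjusted p = 0.0539). Its ob/ob vehicle arrays read 7.69, 7.61 and 7.47. Trf, transferrin, which oligodendrocytes make in brain, differed by -1.40 (limma adjusted p = 0.161). Mbp read 17.84, 14.91 and 17.69 with VE, and its difference of -1.74 was -0.79 without VE array 2.

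Astrocyte genes split. The median of the 13 was -0.51, -0.02 after quantile normalization and -0.26 without VE array 2. At an unadjusted p under 0.05, 5 were lower and 0 higher, beside 9.21% and 2.98% of all probe sets. After quantile normalization 3 were lower and 0 higher, beside 5.67% and 4.81%. Gfap, the intermediate filament of astrocytes, read 11.94, 12.05 and 12.11 in wild type and 10.55, 11.17 and 9.93 with VE, a difference of -1.48 (SE 0.28, limma adjusted p = 0.0634). The wild-type arrays were tight and every VE array was below them with deposited values, the highest being array 2. After quantile normalization the difference was -1.15 (limma adjusted p = 0.328), and VE array 2 at 11.76 lay above wild-type array 1 at 11.68. Without VE array 2 the difference was -1.79 (limma adjusted p = 0.00494), and with quantile normalization of the other 8 it was -1.70 (limma adjusted p = 0.0105). Sox9, a glial transcription factor, read 10.80, 10.64 and 10.56 against 9.80, 9.68 and 9.39 (limma adjusted p = 0.075). It passed without VE array 2 (-1.07, limma adjusted p = 0.0434), but not once the other 8 were quantile normalized (limma adjusted p = 0.0584). Slc1a3, the glutamate transporter of astrocytes, differed by -1.04 (limma adjusted p = 0.0911). The ob/ob vehicle arrays were at 10.91, 10.52 and 10.46 for Gfap and 9.31, 8.91 and 9.18 for Sox9.

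Microglial genes gave no call. Of 17 measured, 16 had negative differences. At an unadjusted p under 0.05, 8 were lower and 0 higher, beside 9.21% and 2.98% of all probe sets. After quantile normalization 7 were lower, beside 5.67%. None passed after adjustment, and the median was -0.45 (-0.28 after quantile normalization, -0.37 without VE array 2). C1qb, a chain of complement C1q, read 7.52, 7.65 and 7.36 in wild type and 6.71, 6.49 and 6.59 with VE, a difference of -0.91 (SE 0.19, limma adjusted p = 0.0883) that was -0.86 after quantile normalization. Cx3cr1, the fractalkine receptor, differed by -0.89, P2ry12, a purine receptor of resting microglia, by -0.83, and Trem2, a lipid-sensing receptor, by -0.71 (limma adjusted p = 0.182, 0.238 and 0.213). Csf1, a growth factor that microglia need, was not among the 17 and is given with its values known. It read 10.63, 10.42 and 10.32 against 9.51, 9.54 and 9.37 (limma adjusted p = 0.0779). It passed without VE array 2 (-1.02, limma adjusted p = 0.0434), but not with quantile normalization of those 8 arrays (limma adjusted p = 0.0666).

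Choroid plexus genes were low on wild-type array 1, with a median of -0.33 against 0.25 and 0.11 on wild-type arrays 2 and 3. Of 13 measured, all had negative differences, the median being -0.33 (-0.24 after quantile normalization, -0.35 without VE array 2). At an unadjusted p under 0.05, 3 were lower and 0 higher, beside 9.21% and 2.98% of all probe sets. Kl, klotho, read 8.39, 10.28 and 9.79 in wild type and 8.31, 7.14 and 7.67 with VE, so VE array 1 was barely below wild-type array 1. Folr1, a folate receptor, at 8.47, 10.03 and 9.57 against 8.16, 8.14 and 7.99, and Kcnj13, a potassium channel, at 9.27, 11.45 and 10.51 against 9.12, 8.14 and 9.24, had the same low first wild-type array. The differences of the 3 were -1.78, -1.26 and -1.58 (limma adjusted p = 0.134, 0.157 and 0.196). Without wild-type array 1, Kl and Folr1 passed at -2.33 and -1.70 (limma adjusted p = 0.0345 for both). Ttr, transthyretin, the bulk product of the tissue, read 19.28, 19.87 and 19.74 in wild type and 19.25, 15.41 and 18.68 with VE, a difference of -1.85 that was -0.39 after quantile normalization.

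Hypothalamic and leptin pathway genes, where the genotype acts, gave no call. Among 14 measured neuropeptides of the hypothalamus, the median was -0.25. At an unadjusted p under 0.05, 4 were lower and 0 higher, beside 9.21% and 2.98% of all probe sets. Pmch, melanin-concentrating hormone, an appetite peptide of the lateral hypothalamus, read 7.18, 11.79 and 10.66 in wild type and 6.60, 6.87 and 6.86 with VE. The ob/ob vehicle arrays read 7.18, 6.94 and 6.52, level with VE and with wild-type array 1. The difference was -3.10 (SE 0.80, limma adjusted p = 0.157), and -4.45 without wild-type array 1 (limma adjusted p = 0.000425). Hcrt, hypocretin, of the same area, read 5.92, 8.35 and 7.17 against 5.51, 6.42 and 5.50 (limma adjusted p = 0.270), its groups overlapping. Wild-type array 1 was also low in hippocampal and choroid plexus genes, and its part in these differences was not tested beyond leaving it out. Tac2, neurokinin B, differed by -0.78 (limma adjusted p = 0.225), and Sst, somatostatin, by -1.63, which was -0.44 after quantile normalization.

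The arcuate peptides stayed near wild type or varied within groups. Npy read 11.11, 11.08 and 11.07 in wild type and 11.26, 9.69 and 10.86 with VE. Pomc read 5.39, 5.82 and 5.05 against 4.95, 6.57 and 5.83, and Cartpt 7.09, 7.28 and 7.35 against 7, 6.77 and 6.94. Their limma adjusted p values were 0.556, 0.690 and 0.497, and Agrp was not analysed here. Lep itself was dim in every group, at 4.81 to 5.08 in wild type and 4.74 to 5.15 with VE; fat is the tissue known to make it. Its receptor Lepr read 6.77, 6.87 and 6.86 against 7, 6.95 and 7.11, a difference of 0.19 (limma adjusted p = 0.699). Socs3, the feedback inhibitor that leptin induces, differed by 0.12, and Bdnf, a neurotrophin that acts below the melanocortin receptors, by -0.61 (limma adjusted p = 0.824 and 0.458).

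Of 20 leptin and melanocortin genes 4 were lower and 0 higher at an unadjusted p under 0.05, beside 9.21% and 2.98% of all probe sets. Their median was -0.33 (-0.19 after quantile normalization, -0.22 without VE array 2). Irs2, an insulin receptor substrate that hypothalamic leptin signalling also uses, read 10.69, 10.44 and 10.38 in wild type and 9.65, 9.95 and 9.39 with VE, a difference of -0.84 (SE 0.21, limma adjusted p = 0.145). The groups did not overlap with deposited values. After quantile normalization the difference was -0.57 (limma adjusted p = 0.452), with VE array 2 at 10.43 inside the wild-type range. Without VE array 2 it passed at -0.98 (limma adjusted p = 0.0473), but not after quantile normalization of the other 8 arrays (limma adjusted p = 0.0666). Irs1 differed by -0.75 and the Npy receptor Npy2r by -0.84 (limma adjusted p = 0.311 and 0.339). Among 20 insulin and PI3K genes the median was -0.23, and it was 0.00 after quantile normalization. At an unadjusted p under 0.05, 6 were lower and 0 higher, beside 9.21% and 2.98% of all probe sets. After quantile normalization these became 3 and 3, beside 5.67% and 4.81%. Pik3ip1, an inhibitor of PI3K, was at the wild-type level with VE, reading 10.79, 10.88 and 11.48 against 11.17, 10.87 and 11.23, a difference of -0.04 (SE 0.27, limma adjusted p = 0.964). In ob/ob mice with vehicle it read 10, 9.63 and 9.07, a difference of -1.52 from wild type (limma adjusted p = 0.0326), and the VE arrays differed from those by 1.48 (limma adjusted p = 0.0366). Fkbp5, a glucocorticoid target, read 13.04, 12.98 and 12.71 in wild type and 13.46, 12.38 and 13.12 with VE, a difference of 0.08 (limma adjusted p = 0.925). That value rests on VE array 2: the difference was 0.47 after quantile normalization (limma adjusted p = 0.378), where no VE array overlapped wild type, and 0.38 without VE array 2 (limma adjusted p = 0.557).

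Large housekeeping families were lower, most of all on VE array 2. The median of 60 cytosolic ribosomal protein genes was -0.52, with -0.04, -1.24 and -0.38 on VE arrays 1, 2 and 3. It was -0.15 after quantile normalization and -0.19 without VE array 2, and the genes lower at an unadjusted p under 0.05 went from 21 to 3 and to 5. The 83 subunits of oxidative phosphorylation had a median of -0.46, which became -0.07 and -0.19, and 22 lower at an unadjusted p under 0.05, which became 8 and 10. Over all probe sets the lower shares were 9.21% with deposited values, 5.67% after quantile normalization and 6.62% without VE array 2. The ob/ob vehicle arrays were also below wild type for both families. They gave -0.27, -0.75 and -0.42 for ribosomal proteins and -0.32, -0.77 and -0.46 for oxidative phosphorylation. None of either family passed after adjustment. The nearest members were Atp5g1, a subunit of ATP synthase, at -0.81 (limma adjusted p = 0.129), and Rpl28 at -1.37 (limma adjusted p = 0.196). The 17 tubulins, the building blocks of microtubules, had a median of -0.64, -0.18 after quantile normalization and -0.49 without VE array 2, with 9, 4 and 8 lower at an unadjusted p under 0.05. Tubb2a and Tuba1a were at -0.98 and -1.22 (limma adjusted p = 0.117 and 0.156).

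Receptor families of the nose had medians close to the wild-type level. The median of 1090 olfactory receptors was 0.05 with VE, and by array it was 0.04, 0.02 and 0.10. Among them, 31 were lower and 68 higher at an unadjusted p under 0.05, beside 9.21% and 2.98% of all probe sets, with 0 called. Their median was 0.01 after quantile normalization, with 44 lower and 60 higher, beside 5.67% and 4.81%. For 319 vomeronasal receptors the median was 0.07, with 3 lower, 18 higher and 0 called (0.05, with 5 and 19, after quantile normalization). The ob/ob vehicle arrays, set against the same wild-type arrays, gave medians of 0.36 and 0.30 with deposited values. After quantile normalization the vehicle arrays gave 0.16, 0.18 and 0.26 for olfactory receptors and 0.13, 0.15 and 0.16 for vomeronasal receptors. These are signals near the floor of the array, where most probe sets lie below the wild-type median of 7.13, and expression of the receptors is not shown by them.

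**Figure D5:**
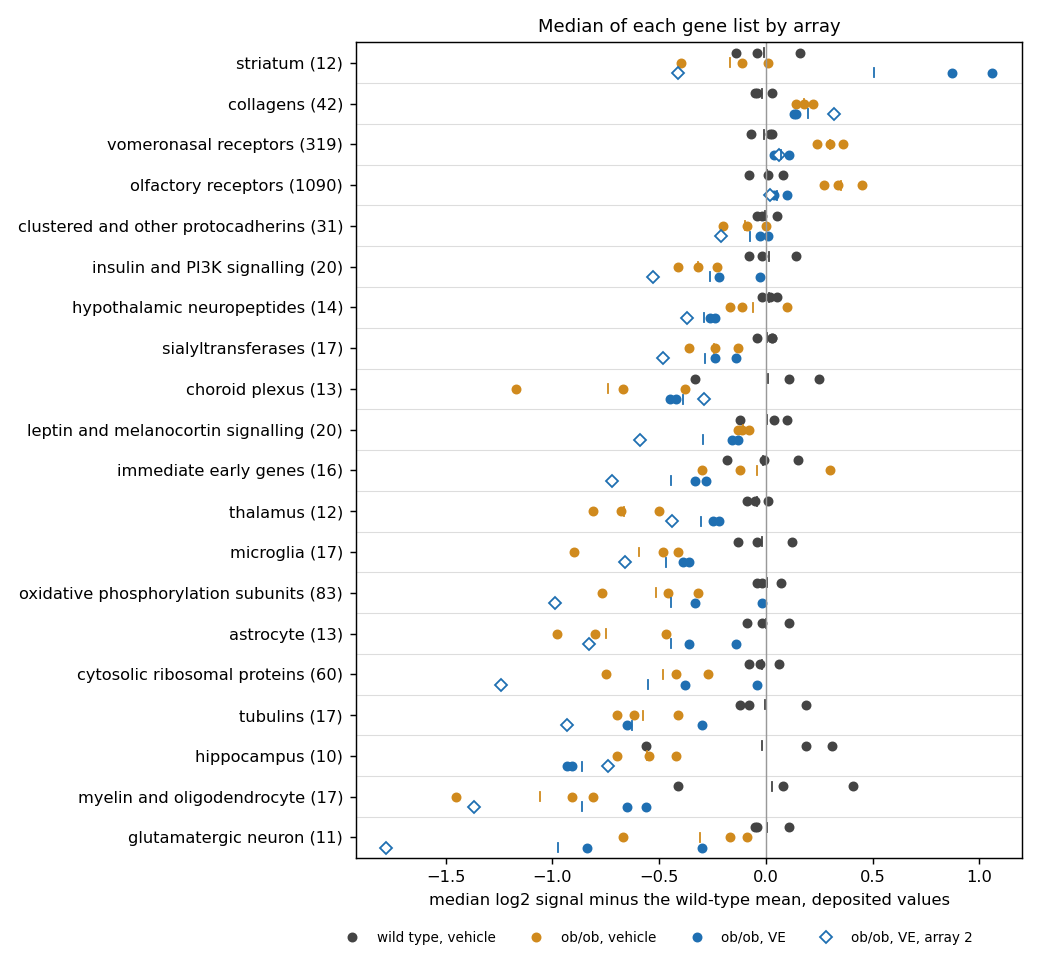
Median over each gene list (members measured in brackets) of log2 signal minus the wild-type mean, by array (horizontal axis, deposited values). Points are arrays, short lines are the means of the 3 arrays, and the open diamond is VE array 2. Striatal genes are above wild type on VE arrays 1 and 3 (1.06 and 0.87) and below on array 2 (-0.41, which was 0.24 after quantile normalization). Hippocampal genes are low on all 3 VE arrays. Ribosomal protein genes are lowest on VE array 2 (-1.24), with the ob/ob vehicle arrays at -0.27, -0.75 and -0.42.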

How the data were processed

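Total RNA from brain was hybridised to Clariom S mouse arrays, 1 array per sample. The deposited values are log2 signals, made by the authors with RMA in Transcriptome Analysis Console version 4, per the submitters' processing notes; the genome build is not given in the sources used here. No counts lie behind array values, so the number of arrays limits the precision. Groups were taken from sample titles. limma 3.58.1 in R 4.3.3 (lmFit and eBayes) was fitted to the 9 arrays with a mean for each of 3 groups (residual df 6, prior df 7.03). P-values were adjusted by Benjamini-Hochberg over 22206 probe sets, and calls used a threshold of 0.05. No probe set was filtered out. Probe sets with 1 symbol in the platform annotation were named (19572, for 19505 genes; 2634 had none or several), and for 55 genes with several the brightest stood for the gene in lists. The fit was tested on simulated data.

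Named genes were the 12 largest changes each way among those called, up to 4 members per list by p, and genes of leptin signalling and brain markers. The higher side was filled by the smallest p above the median level, without predicted genes and chemosensory receptors. Other named genes, among them Csf1, Dsp, C1ql2, Nr4a1, Egr1 and Fos, lie outside these rules and were added with their values known. Members and lists were chosen with earlier results of these data known. Lists are described by counts and medians. Samples that share a replicate number across groups did not deviate together (correlations of 0.12, -0.02 and -0.03), so they were not treated as pairs. Promoters came from RefSeq (GRCm38.p6). Alternatives covered thresholds, moderation, a level filter, 5 normalizations, array weights, a replicate block, the samples in the fit and each array left out in turn.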

Additional observations from a re-analysis of the deposited data

How the results depend on the processing

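The count of 22 called probe sets, all lower, was the least stable result. It was 2707 (2046 lower, 661 higher) by an unadjusted p under 0.05 plus a 1.1-fold minimum, and 109 (102 lower, 7 higher) at an adjusted p under 0.1. It was 10, all lower, with trend and robust moderation, 49, all lower, when dim probe sets (below the median) were dropped, and 7, all lower, after centring arrays on their medians. With array weights (0.145 for VE array 2) it was 3286 (2130 lower, 1156 higher). limma called 0 after quantile normalization over 9 or 6 arrays, equal SD, cyclic loess, and with the 2 groups alone, where 2328, 1895, 2286, 2490 and 2077 probe sets had an unadjusted p under 0.05. With the replicate number as a block it called 2, both lower, and 0 with the block after quantile normalization (2378 at an unadjusted p under 0.05). Leaving out 1 array gave 0 to 158 called, 0 to 148 lower and 0 to 10 higher.

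Medians of gene lists moved by more than the spread between arrays in the settings given here. After quantile normalization, with or without the block, they were -0.27 for thalamus, -0.47 for glutamatergic neurons, -0.02 for astrocytes, -0.28 for microglia, 0.00 for insulin and PI3K, -0.06 for sialyltransferases, -0.07 for oxidative phosphorylation, -0.18 for tubulins and 0.06 for protocadherins. Over the 6 arrays alone, glutamatergic neurons were at -0.44, sialyltransferases at -0.07 and tubulins at -0.17. Equal SD gave -0.31, -0.15, -0.30, 0.04, -0.05, -0.16 and 0.06 for thalamus, astrocytes, microglia, insulin, sialyltransferases, tubulins and protocadherins, and cyclic loess -0.26, -0.12, -0.29, 0.03, -0.06, -0.21 and 0.06, with -0.47 for glutamatergic neurons. Members above the median level gave -1.26 for choroid plexus, -1.06 for hypothalamic neuropeptides and 0.02 for vomeronasal receptors, which centring put at 0.12, and array weights gave -0.25 for thalamus.

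With 1 array left out the medians ran from -0.98 to -0.48 for hippocampus, -0.54 to -0.14 for thalamus, -1.49 to -0.24 for glutamatergic neurons, -1.18 to -0.41 for myelin, -0.60 to 0.03 for astrocytes, -0.53 to -0.28 for microglia, -0.34 to -0.16 for hypothalamic neuropeptides, -0.48 to -0.11 for leptin and melanocortin, -0.33 to 0.05 for insulin and PI3K, -0.37 to -0.04 for sialyltransferases, -0.77 to -0.06 for ribosomal proteins, -0.69 to -0.04 for oxidative phosphorylation, -0.74 to -0.02 for tubulins, 0.01 to 0.08 for vomeronasal receptors, -0.20 to 0.06 for protocadherins and 0.06 to 0.24 for collagens.

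The 20 named genes that fell stayed negative in all 33 alternatives (32 for Tanc1, which the level filter removed). Many of these alternatives could not change the sign. Thresholds, moderation, probe set filters, the replicate block and leaving out ob/ob vehicle arrays keep the difference between the compared group means. The genes were also chosen for being low on these VE arrays. Genes that changed sign in any alternative had not passed at an adjusted p under 0.05 in any, apart from Slc17a7 with array weights. Lep was at -0.01 after quantile normalization in each form, -0.03 with equal SD and -0.02 with cyclic loess. Pik3ip1 was at 0.26 after quantile normalization, 0.01 centred, 0.30 with equal SD, 0.22 with cyclic loess and 0.32 with array weights, and Socs3 at -0.02 with equal SD. With 1 array left out the ranges were -1.89 to 0.04 for Slc17a7, -1.97 to 0.13 for Snap25, -0.05 to 0.45 for Nr4a1, -0.09 to 0.19 for Lep, -0.81 to 0.06 for Npy, -0.07 to 0.78 for Pomc, -0.11 to 0.19 for Socs3, -0.26 to 0.54 for Pik3ip1 and -0.16 to 0.51 for Fkbp5. The cause of these changes was not tested.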

Other observations

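Cell adhesion molecules of the protocadherin family, which help neurons recognise each other, held some of the larger differences outside the groups described so far. Of 31 measured protocadherins, 6 were lower and 0 higher at an unadjusted p under 0.05, beside 9.21% and 2.98% of all probe sets, none passed after adjustment, and the median was -0.05. After quantile normalization and without VE array 2 the counts were 6 lower and 2 higher, with medians of 0.06 and -0.01. The lower ones lay outside the gene clusters for the most part. Pcdh1 read 12.93, 13.22 and 12.88 in wild type and 12.21, 11.43 and 11.75 with VE, a difference of -1.21 (limma adjusted p = 0.0716) that was -0.86 after quantile normalization and -1.03 without VE array 2. Pcdh19 and Pcdh8 were at -1.26 and -0.94 (limma adjusted p = 0.135 and 0.145). All 3 had VE arrays below the wild-type arrays without overlap with deposited values.

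Of 42 collagens, dim in brain, 5 were higher and 0 lower at an unadjusted p under 0.05, beside 2.98% and 9.21% of all probe sets. None was called, and the median was 0.16 (0.22 after quantile normalization, 0.07 without VE array 2). After quantile normalization VE arrays 1, 2 and 3 gave collagen medians of 0.12, 0.33 and 0.07. The 7402 dimmest probe sets had a median of 0.09 (0.02 after quantile normalization). The ob/ob vehicle arrays gave collagen medians of 0.14, 0.18 and 0.22 (0.06, 0.05 and 0.04 after quantile normalization). Col5a2, a chain of fibrillar collagen, read 5.54, 5.75 and 5.79 in wild type and 6.47, 6.28 and 6.30 with VE (limma adjusted p = 0.203).

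Among genes called without VE array 2 alone, chosen after their values were seen, Dcakd, named for a kinase domain of coenzyme A synthesis, read 8.71, 8.37 and 8.63 in wild type and 7.30, 7.71 and 7.09 with VE (-1.38, limma adjusted p = 0.00863 without that array). Fxyd1, phospholemman, a regulator of the sodium pump found in choroid plexus and glia, read 10.04, 10.35 and 10.25 against 8.70, 9.50 and 8.79 (-1.47, limma adjusted p = 0.0119 without that array).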
